A study of Homo sapiens with 18 samples.

Results

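Transfer RNAs (tRNAs) that carry methionine, valine, isoleucine, phenylalanine or tryptophan were examined in small RNA libraries of HEK293T cells, a transformed human embryonic kidney line, in which SSB was knocked down. SSB encodes La, a protein that binds new transcripts of RNA polymerase III. The members were the rows of the count table named as initiator Met, elongator Met, Val, Ile, Phe or Trp tRNA genes that spanned at most 500 nt, with the Ile-TAT genes left out. They came to 91 of the 175935 rows of the table and to 91 of its 499 nuclear tRNA rows. By anticodon they fell into 9 families, which held 19 Val-CAC, 15 Ile-AAT, 11 Val-AAC, 11 elongator Met, 11 Phe, 9 initiator Met, 7 Trp, 5 Val-TAC and 3 Ile-GAT rows.

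All 18 libraries came from HEK293T cells transfected with RNAiMAX for 48 hours, either with si-scramble (control) or with si-SSB (siSSB). Small RNA was taken from whole cells (total), from the nuclear fraction (nuc) and from the cytoplasmic fraction (cyto), which gave 6 groups of 3 biological replicates: control total, siSSB total, control nuc, siSSB nuc, control cyto and siSSB cyto. The titles of every library carry the tag Plus_PNK. The knockdown was transient and in 1 cell line.

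As background, a nuclear tRNA gene is transcribed by RNA polymerase III from promoter elements inside the gene, and transcription ends in a run of thymidines just downstream. The precursor therefore leaves the polymerase with a 5′ leader and a 3′ trailer that ends in uridines, and La holds those uridines while the precursor is folded and trimmed. RNase P then removes the leader, the trailer is cut off, and the mature tRNA is exported to the cytoplasm. Methionine has 2 kinds of tRNA: the initiator starts protein synthesis in the P site of the ribosome, and the elongator inserts methionine inside the chain. Many human tRNA genes share their mature sequence with other gene copies whose flanks differ.

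Each row of the table spanned a tRNA gene with 25 nt on either side, so a count could hold mature and precursor reads and the 2 were not separated. The 91 members had 53 distinct mature sequences, and 51 members shared one of 13 sequences with at least 1 other member. Counts of members or of genes in a family are therefore not counts of independent measures. Reads of identical copies cannot be assigned to a copy from mature sequence alone, and the handling of such reads and of strand is not given in the sources used here, so values of single copies are uncertain and family sums are given beside them. Of the members, 46 lay on chromosome 6 and 11 on chromosome 1. By the annotation, 72 were intergenic, 13 lay only in an intron and 6 overlapped an exon of another gene. A run of at least 4 thymidines stood within the 25 nt downstream of 83 members (91.2%), beside 306 of 408 other tRNA rows (75%).

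Library totals ranged from 21565995 to 158244813 reads, of which 3393 to 81696 were member reads. Depth behind a member was lowest in the nuclei, where all members together had 3393 to 5208 reads a library. Members made up 8.51% ± 0.918 (SD, n = 3) of all tRNA reads in control total, 8.07% ± 1.56 in siSSB total, 7.27% ± 0.5 in control nuc, 7.66% ± 0.535 in siSSB nuc, 7.67% ± 1.61 in control cyto and 8.75% ± 2.74 in siSSB cyto. The fraction labels were checked on 8 nuclear and 9 cytoplasmic RNAs. Of the nuclear RNAs, 7 were higher in the nucleus in control and 6 in siSSB (edgeR, adjusted p under 0.05), while of the cytoplasmic RNAs 6 were lower and 3 higher in the nucleus in both. The 3 that went against their label were the signal recognition particle RNAs RN7SL1 and RN7SL2, and the mitochondrial tRNA MT-TV. Of the nuclear RNAs, MALAT1 did not pass in control (log2 difference 0.19, edgeR adjusted p = 0.7) or in siSSB (0.5, adjusted p = 0.251). NEAT1 did not pass in siSSB (0.79, adjusted p = 0.0639). The table had no row named SSB, so the knockdown of its mRNA was not checked here. The 1 row inside SSB on its strand, named HSALNG0020274 (hg38 chr2:169806811-169811069), had 12, 15 and 19 reads in control total against 698, 1267 and 547 in siSSB total, and the reason was not tested.

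The mature sequences of the most abundant gene of 8 of the families show what was measured, with the anticodon in capitals. They are read from the hg38 genome, 5′ to 3′. Gene names are RefSeq symbols, which could be matched for 85 of the 91 members. For elongator Met, TRM-CAT6-1 stands in for the most abundant gene, and no Ile-AAT sequence is given.
Initiator Met, TRX-CAT1-1, chr1:153671250-153671321, plus strand: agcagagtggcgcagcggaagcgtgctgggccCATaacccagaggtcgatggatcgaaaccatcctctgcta
Elongator Met, TRM-CAT6-1, chr16:87384022-87384094, minus strand: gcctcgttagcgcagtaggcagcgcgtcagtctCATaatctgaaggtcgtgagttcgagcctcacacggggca
Val-CAC, TRV-CAC2-1, chr6:27280270-27280342, minus strand: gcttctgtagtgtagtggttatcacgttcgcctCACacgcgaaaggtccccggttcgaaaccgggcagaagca
Val-AAC, TRV-AAC2-1, chr5:181188416-181188488, minus strand: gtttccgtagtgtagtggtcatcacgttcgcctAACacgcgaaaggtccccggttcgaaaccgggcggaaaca
Val-TAC, TRV-TAC3-1, chr10:5853711-5853783, minus strand: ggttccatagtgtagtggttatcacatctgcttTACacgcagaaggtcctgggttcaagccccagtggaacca
Ile-GAT, TRI-GAT1-1, chrX:3838377-3838450, minus strand: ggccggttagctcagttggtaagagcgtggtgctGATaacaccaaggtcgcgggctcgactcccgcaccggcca
Phe, TRF-GAA1-5, chr13:94549650-94549722, minus strand: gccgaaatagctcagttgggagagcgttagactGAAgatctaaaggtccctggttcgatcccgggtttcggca
Trp, TRW-CCA2-1, chr17:19508181-19508252, plus strand: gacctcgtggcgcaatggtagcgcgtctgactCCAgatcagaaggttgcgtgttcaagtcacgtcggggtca

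TRW-CCA2-1 lies in an intron of SLC47A1, TRV-AAC2-1 in an exon of the long noncoding gene LINC01962, TRI-GAT1-1 in an intron of a long noncoding gene, and TRM-CAT6-1 in an intron of FBXO31 and, on the opposite strand, an exon of MAP1LC3B. The other 4 are intergenic.

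The families differed widely in the reads counted for them. Summed over its genes, a family had on average over the 18 libraries 15500 reads for Val-CAC, 11200 for Val-AAC and 3150 for Val-TAC. Ile-AAT followed with 1990 reads, then initiator Met with 888, elongator Met with 826, Phe with 819, Trp with 231 and Ile-GAT with 17.4. All rows are of nearly the same length. How reads of identical copies were counted is not known, and the families hold different numbers of copies. Abundance here therefore means reads counted and not amounts of tRNA. Within whole control cells, in CPM, that is read counts brought to a common library total and corrected with TMM factors (separately for each comparison, so a library has other values in another comparison), Val-CAC had 420, 262 and 233 CPM, whereas initiator Met had 20.4, 16.1 and 14 CPM, elongator Met 21.6, 12.9 and 11.3 CPM and Phe 32.4, 18.1 and 15.2 CPM. The last 3 families overlapped in their values. One member had no read in any library, and 10 members had a mean of fewer than 10 reads.

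Knockdown in whole cells asks whether these tRNAs change when La is depleted. Of the 81 members that passed the filter on low counts, 80 had lower fitted values in siSSB total than in control total, with a median log2 change of -0.95 and a range from -2.51 to 0.09. The other 355 tested tRNA rows had a median of -0.82, and all 13883 features a median of -0.01. Only 2 members passed the test, TRI-AAT6-1 and TRI-AAT8-1, both Ile-AAT genes and both lower (edgeR quasi-likelihood F-test, Benjamini-Hochberg over all features). That is 2.47% of the members, beside 1.34% of all features called and 0.972% called lower, and beside 41 of the 355 other tRNA rows (11.5%). All 3 siSSB values were under all 3 control values for 56 of the 81 members and 203 of the 355 other tRNA rows, against 9.05% of all features. Less tRNA per cell and fewer cells that hold it cannot be told apart in bulk RNA.

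The size of the change in whole cells depended on the scaling. Scaled by library size alone, the median of all features moved to 0.55 and that of the members to -0.37, so that 60 members were lower and 21 higher. The difference between members and all features was then close to that with TMM. The TMM factors of these 6 libraries ranged from 0.641 to 1.75. How many members passed ran from 0 without control total replicate 2 or siSSB total replicate 2 to 20 without siSSB total replicate 3 (13 without control total replicate 3), and was 20 by the edgeR exact test and 19 by DESeq2, all of them lower.

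**Figure D1:**
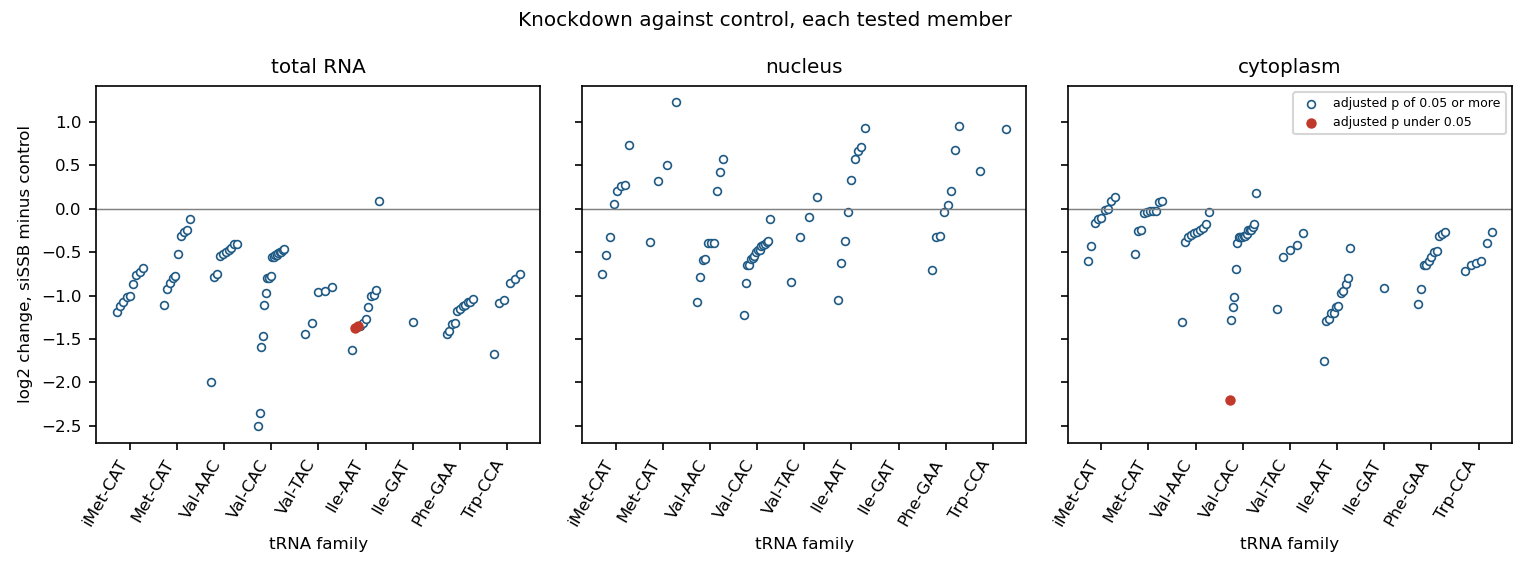
Log2 change in siSSB against control for each tested member (points), by family, in total RNA, nucleus and cytoplasm (panels). Red points have an adjusted p under 0.05. Below 0 lie 80 of 81 points in total RNA, 38 of 61 in the nucleus and 77 of 82 in the cytoplasm.

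The 2 called isoleucine genes each differ at 2 bases from the commonest Ile-AAT sequence and lie between genes on chromosome 6. TRI-AAT8-1 has no run of 4 thymidines within 25 nt downstream, and its first lies after 43 nt.

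TRI-AAT6-1 stood at 4.93, 3.23 and 3.38 CPM in control total and at 1.76, 1.04 and 1.75 CPM in siSSB total. The groups did not overlap, and the log2 change was -1.35 ± 0.28 (SE, edgeR adjusted p = 0.0366). TRI-AAT8-1 had 5.3, 5.35 and 7.62 CPM in control total and 1.55, 2.27 and 3.26 CPM in siSSB total, again without overlap, and its log2 change was -1.37 ± 0.29 (adjusted p = 0.0402). Both calls were lost with identical rows taken once (adjusted p = 0.0545 for TRI-AAT6-1 and 0.0666 for TRI-AAT8-1), with scaling by library size alone (0.27 and 0.252) and without siSSB total replicate 2 (0.104 and 0.123). They were also lost without control total replicate 2 (0.0763 and 0.0952) and siSSB total replicate 1 (0.0655 and 0.102), TRI-AAT6-1 also without control total replicate 1 (0.0546) and TRI-AAT8-1 also without control total replicate 3 (0.0637). The most abundant isoleucine gene, TRI-AAT2-1, did not pass although it differed by more: 47.6, 31.6 and 24 CPM in control total against 11.3, 4.82 and 17.1 CPM in siSSB total, a log2 change of -1.63 ± 0.42 (adjusted p = 0.0796). It did pass in 8 alternatives, among them the edgeR exact test (0.0142), DESeq2 (0.00379), library size alone (0.0425), TMM factors from features of at most 500 nt (0.0172), and without control total replicate 3 (0.0352) or siSSB total replicate 3 (0.0287). The Ile-AAT family had 11 tested genes, 10 of them lower, with a median of -1.27, and its total was 71.7, 49.3 and 43.7 CPM in control against 19.4, 11.1 and 28.9 CPM in siSSB (log2 change -1.47 ± 0.37, adjusted p = 0.0792). Its rarer partner Ile-GAT, which also reads isoleucine codons, had 1 tested gene, TRI-GAT1-1, at 0.488, 0.223 and 0.204 CPM in control and 0.0977, 0.121 and 0.14 CPM in siSSB (adjusted p = 0.129).

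Both methionine families had lower fitted values in whole siSSB cells, and neither passed the test. Initiator Met totals were 20.4, 16.1 and 14 CPM in control and 8.53, 6.21 and 12 CPM in siSSB, a log2 change of -0.91 ± 0.29 (edgeR adjusted p = 0.128). All 9 initiator genes were lower, by a median of -1.0 on the log2 scale, and for 8 of them the groups did not overlap. Of the 9 genes, 8 are copies of 1 mature sequence, so their values are not independent. Among all features, 9.05% had all 3 siSSB values under all 3 control values. The most abundant initiator gene, TRX-CAT1-1, had 3.8, 3.52 and 2.65 CPM in control and 1.63, 2.13 and 2.43 CPM in siSSB (log2 change -0.68 ± 0.25, adjusted p = 0.18). Elongator Met totals were 21.6, 12.9 and 11.3 CPM in control and 9.02, 7.59 and 11.3 CPM in siSSB (log2 change -0.71 ± 0.29, adjusted p = 0.25). All 10 tested elongator genes were lower, by a median of -0.65, and for 4 of them the groups did not overlap. TRM-CAT1-1, the most abundant of them, had 6.9, 4.52 and 4.51 CPM in control and 2.75, 2.37 and 3.7 CPM in siSSB (log2 change -0.85 ± 0.26, adjusted p = 0.129).

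Among the valine tRNAs, the Val-TAC family showed the widest gap in whole cells. Its total was 98.5, 63.5 and 76.2 CPM in control and 33.0, 21.9 and 42.9 CPM in siSSB, without overlap (log2 change -1.28 ± 0.33, edgeR adjusted p = 0.0792). TRV-TAC3-1 made up most of it, at 64.5, 40.9 and 55.0 CPM in control and 22.2, 11.2 and 25.7 CPM in siSSB (log2 change -1.44 ± 0.35, adjusted p = 0.0718). TRV-TAC3-1 passed by the edgeR exact test (0.01), by DESeq2 (0.00227), with TMM factors from features of at most 500 nt (0.0233) and with the looser filter (0.0465). Val-CAC totals of 420, 262 and 233 CPM in control and 131, 168 and 237 CPM in siSSB overlapped (log2 change -0.77 ± 0.36, adjusted p = 0.311), as did Val-AAC totals of 264, 183 and 171 CPM against 113, 120 and 172 CPM (-0.61 ± 0.33, adjusted p = 0.395). The leading genes of these 2 families overlapped as well: TRV-CAC2-1 had 133, 74.6 and 68.0 CPM in control and 36.4, 46.0 and 79.8 CPM in siSSB. TRV-AAC2-1 had 46.2, 36.2 and 31.2 CPM in control and 20.4, 28.0 and 34.8 CPM in siSSB, and its log2 change of -0.45 turned to 0.15 with scaling by library size alone.

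The widest differences of all members in whole cells were those of the 2 genes of the Val-CAC-8-1 sequence on chromosome 1, neither of which passed. The gene at chr1:145161108-145161178 (TRNAV-CAC) had 40.5, 13.4 and 7.27 CPM in control total and 3.55, 1.22 and 6.01 CPM in siSSB total, a log2 change of -2.51 ± 0.62 (edgeR adjusted p = 0.0781). The other gene, TRV-CAC8-1, at chr1:143800041-143800111, had 29.1, 9.89 and 5.37 CPM against 2.6, 1.08 and 4.98 CPM (-2.36 ± 0.6, adjusted p = 0.0796). Control total replicate 1 stood far above the other control libraries in both. The nucleolar RNA SNORD13, a nuclear marker, moved with them, at 2431, 1024 and 516 reads in control total and 429, 299 and 738 reads in siSSB total, and its part in the result was not tested. Over all 8 nuclear markers the median log2 change in whole cells was -0.04, with a range from -1.58 to 0.23.

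Phenylalanine and tryptophan tRNAs had lower fitted values in every tested gene in whole cells, and none passed the quasi-likelihood test. The 11 Phe genes had a median log2 change of -1.15, with a range from -1.44 to -1.04. They have 6 distinct mature sequences, and 6 of the genes are copies of 1 sequence, so their values are not independent. Phe totals were 32.4, 18.1 and 15.2 CPM in control and 8.66, 5.83 and 14.1 CPM in siSSB (-1.2 ± 0.37, edgeR adjusted p = 0.128), and the leading gene TRF-GAA1-5 had 10.6, 6.6 and 6.18 CPM against 3.21, 2.29 and 5.23 CPM (-1.12 ± 0.32, adjusted p = 0.11). Trp totals were 6.15, 6.46 and 3.83 CPM in control and 2.08, 1.94 and 3.53 CPM in siSSB (-1.12 ± 0.29, adjusted p = 0.0815), and TRW-CCA2-1 had 2.41, 1.56 and 1.47 CPM against 0.554, 0.699 and 1.3 CPM (-1.09 ± 0.33, adjusted p = 0.124). TRF-GAA1-5 did pass by the edgeR exact test (adjusted p = 0.0417) and by DESeq2 (0.0332), and without siSSB total replicate 3 both TRF-GAA1-5 (0.0343) and TRW-CCA2-1 (0.0317) passed. In all, 0 of the 9 family totals passed in whole cells by edgeR, while all 9 were lower and 7 had an unadjusted p under 0.05. Without control total replicate 3, and likewise without siSSB total replicate 3, 2 of the totals passed.

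**Figure D2:**
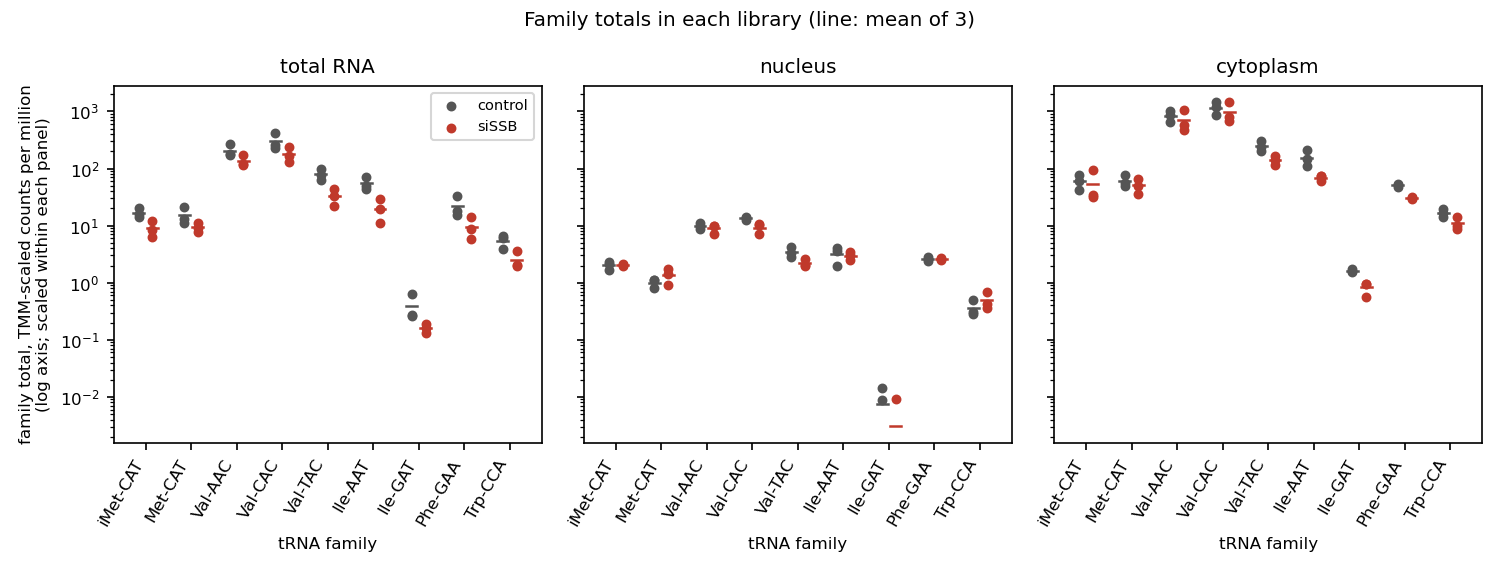
TMM-scaled CPM summed over each family in each library (points, log axis), in total RNA, nucleus and cytoplasm, with control in grey, siSSB in red and a line at the mean of the 3 libraries; values at 0 are not drawn. Val-CAC lies highest, at 233 to 420 in control total, and Ile-GAT lowest, at 0.262 to 0.628.

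In the nucleus, knockdown gave no uniform direction among these tRNAs. Of 61 tested members, 38 had lower and 23 higher fitted values in siSSB nuc, with a median log2 change of -0.32 beside 0.08 for all 6873 features and -0.35 for 255 other tRNA rows. Without siSSB nuc replicate 2 the median of the members was -0.08. No member passed in edgeR, where 12 had an unadjusted p under 0.05 and the smallest adjusted p was 0.163, nor in the edgeR exact test (12 unadjusted) or DESeq2 (11 unadjusted). The background was 0.378% of all features called, and 2 of the other tRNA rows were called, 1 in each direction. All 3 siSSB values were under all 3 control values for 8 of 61 members and 58 of 255 other tRNA rows, beside 9.06% of all features. All 16 tested Val-CAC genes were lower, by a median of -0.49, whereas 3 of 4 elongator Met genes and both Trp genes were higher. Scaled by library size alone, the split over all members was 30 lower and 31 higher.

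The nuclear family totals showed the same mixture, and none of 9 passed in edgeR, with 1 at an unadjusted p under 0.05. Val-TAC had 3.28, 2.86 and 4.14 CPM in control nuc and 2.04, 1.95 and 2.62 CPM in siSSB nuc (log2 change -0.64 ± 0.28, adjusted p = 0.325). Initiator Met had 2.28, 2.16 and 1.64 CPM against 2.09, 1.97 and 2.04 CPM, a log2 change of 0.0 ± 0.26 (adjusted p = 0.997). Elongator Met had 1.1, 1.1 and 0.799 CPM against 1.44, 0.905 and 1.73 CPM (0.44 ± 0.3, adjusted p = 0.488). Phe totals were nearly level, at 2.63, 2.36 and 2.85 CPM against 2.6, 2.53 and 2.66 CPM (-0.01 ± 0.26, adjusted p = 0.983). The 2 isoleucine genes called in whole cells had, in the nucleus, log2 changes of -0.62 ± 0.36 for TRI-AAT6-1 and -0.04 ± 0.45 for TRI-AAT8-1.

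In the cytoplasm 1 member passed, the valine gene tRNA-Val-CAC-10-1. Of 82 tested members, 77 had lower fitted values in siSSB cyto, with a median log2 change of -0.35 beside 0.01 for all 18921 features and -0.64 for 360 other tRNA rows. Without siSSB cyto replicate 3 the median of the members was -0.76. The call is 1.22% of the members, beside 0.291% of all features called, 0.27% called lower, and 18 of the other tRNA rows (5.0%). All 3 siSSB values were under all 3 control values for 24 members and for 195 other tRNA rows, against 7.53% of all features. The gene lies between genes at chr1:16680006-16680078 on the minus strand, has no RefSeq gene, and differs at 12 bases from the commonest Val-CAC sequence. It is shown with the anticodon in capitals.
tRNA-Val-CAC-10-1: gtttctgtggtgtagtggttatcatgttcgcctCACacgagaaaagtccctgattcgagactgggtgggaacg

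tRNA-Val-CAC-10-1 had 4.06, 3.42 and 3.39 CPM in control cyto and 0.837, 0.783 and 0.716 CPM in siSSB cyto, from 99, 76 and 122 reads against 26, 21 and 20. The groups lay far apart, with a log2 change of -2.21 ± 0.23 (edgeR adjusted p = 0.00991), and the call was lost without siSSB cyto replicate 1 (adjusted p = 0.134). In whole cells the same gene had 0.593, 0.334 and 0.407 CPM against 0.244, 0.0964 and 0.109 CPM (-1.59 ± 0.39, adjusted p = 0.0763), which passed by the edgeR exact test (0.0114), with the looser filter (0.0464) and without siSSB total replicate 1 (0.0373). The gene was nearly absent from the nuclei, with 5, 0 and 0 reads in control nuc and 1, 0 and 0 in siSSB nuc, below what the filter allowed.

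Isoleucine tRNAs had the lowest median in the cytoplasm after knockdown, at -1.12 over 12 genes, all lower, of which 11 had an unadjusted p under 0.05. The Ile-AAT total was 145, 110 and 211 CPM in control cyto and 59.6, 73.5 and 72.9 CPM in siSSB cyto, without overlap (log2 change -1.18 ± 0.29, edgeR adjusted p = 0.176). TRI-AAT6-1 had 21.1, 16.2 and 26.8 CPM against 8.98, 7.95 and 9.59 CPM (-1.27 ± 0.28, adjusted p = 0.116), and TRI-AAT8-1 had 40.0, 30.6 and 44.7 CPM against 14.8, 14 and 21.2 CPM (-1.2 ± 0.28, adjusted p = 0.147). The edgeR exact test and DESeq2 called both. Phe totals did not overlap either, at 50.8, 47.5 and 53.9 CPM against 30.8, 29.5 and 32.0 CPM (-0.72 ± 0.23, adjusted p = 0.402).

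Ile-GAT, at 1.72, 1.62 and 1.56 CPM against 0.965, 0.56 and 0.967 CPM (-0.96 ± 0.27, edgeR adjusted p = 0.263), and Val-TAC, at 234, 203 and 300 CPM against 142, 117 and 168 CPM (-0.79 ± 0.27, adjusted p = 0.467), did not overlap either, and the other families did. Initiator Met had 78.5, 41.2 and 60.9 CPM in control cyto and 32.3, 34.5 and 92.4 CPM in siSSB cyto (-0.18 ± 0.43, edgeR adjusted p = 0.984), so that siSSB cyto replicate 3 stood above every control library. Elongator Met had 77.8, 55.3 and 49.8 CPM against 48.8, 36.4 and 66.7 CPM (-0.27 ± 0.3, adjusted p = 0.919). Val-CAC totals, at 1450, 1200 and 871 CPM against 800, 676 and 1440 CPM, and Val-AAC totals, at 1030, 863 and 643 CPM against 586, 481 and 1040 CPM, had the same high replicate 3. None of the 9 totals passed in edgeR, and 4 had an unadjusted p under 0.05.

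The difference between the nuclear and the cytoplasmic effect was tested directly, in 1 fit of the 12 fraction libraries. None of 87 members passed in edgeR, with 10 at an unadjusted p under 0.05 and a smallest adjusted p of 0.958, and none passed in DESeq2, with 8 at an unadjusted p under 0.05. Over all features 0.0133% passed. The median of the difference, nuclear minus cytoplasmic log2 change, was 0.12 over the members and 0.2 over the other tRNA rows. For Ile-AAT, with 12 of 14 genes above 0, the difference of the family total was 0.9 ± 0.46 (adjusted p = 0.958). None of the 9 family totals passed, and none had an unadjusted p under 0.05.

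Nucleus against cytoplasm asks where these tRNAs lie. In control cells 62 of 85 tested members passed, 57 lower and 5 higher in the nucleus (edgeR, adjusted p under 0.05), with a median log2 difference of -1.97. The background was 23.3% of 26774 features called, 14.1% lower and 9.21% higher, while 302 of 372 other tRNA rows passed (median -2.27). In siSSB cells 56 of 83 members passed, 46 lower and 10 higher, with a median of -1.46, against 25.3% of all features called, 14.5% lower and 10.9% higher, and 264 of 358 other tRNA rows (median -1.93). The knockdown and the fraction comparisons share libraries, so they are not independent. Direction here rests on the scaling, because TMM factors ran from 0.229 to 4.83 in control and from 0.228 to 4.05 in siSSB. Scaled by library size alone the median of all features was -4.34 in control and -3.96 in siSSB, and all 85 and 83 members were called lower in the nucleus. With TMM factors taken from features of at most 500 nt, 44 were lower and 7 higher in control, and 36 lower and 13 higher in siSSB.

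**Figure D3:**
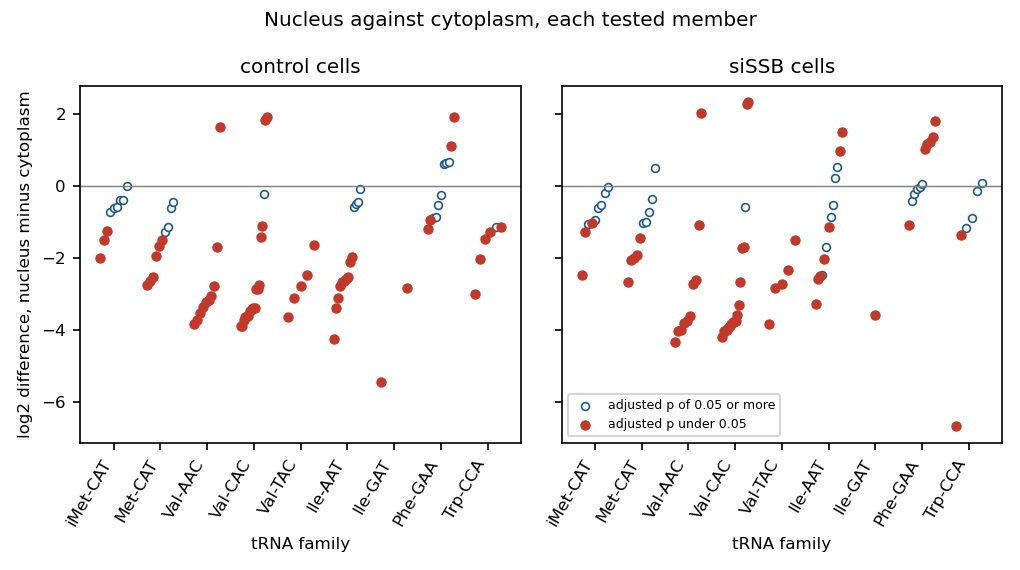
Log2 difference of nucleus minus cytoplasm for each tested member (points) by family in control and siSSB cells (panels). Red points have an adjusted p under 0.05. The median Val-CAC point lies at -3.4 in control cells, while the Phe points of control cells run from -1.19 to 1.92.

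Valine tRNAs had, after the rare Ile-GAT, the lowest family medians of nucleus against cytoplasm in control cells. All 10 tested Val-AAC genes passed, 9 of them lower in the nucleus, as did 17 of 18 Val-CAC genes (15 lower) and all 5 Val-TAC genes (all lower), with family medians of -3.2, -3.4 and -2.79 on the log2 scale. Of all features, 23.3% were called in this comparison and 14.1% called lower. TRV-CAC2-1 had 75.8, 61.4 and 51.4 CPM in control cyto and 11.3, 8.85 and 5.79 CPM in control nuc (-2.86 ± 0.32, edgeR adjusted p = 1.18e-08). TRV-AAC2-1 had 56.4, 43.9 and 27.3 CPM against 5.86, 4.57 and 3.22 CPM (-3.22 ± 0.34, adjusted p = 3.38e-09). In siSSB cells the lowest were TRV-AAC4-1, at 12, 9.93 and 25.1 CPM in the cytoplasm and 1.25, 0.406 and 0.674 CPM in the nucleus (-4.35 ± 0.45, adjusted p = 1.66e-08), and TRV-CAC5-1, at 14, 11.8 and 29.3 CPM against 1.25, 0.696 and 1.07 CPM (-4.2 ± 0.41, adjusted p = 6.7e-09). Among control cells tRNA-Val-CAC-10-1 was among the lowest at -3.9 ± 0.59, but 2 of its 3 nuclear libraries were at 0, so its fitted value depends on the prior count.

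The 2 Val-CAC-8-1 genes went the other way. TRV-CAC8-1 had 2.17, 1.69 and 3.67 CPM in control cyto and 8.96, 8.04 and 11.4 CPM in control nuc (1.91 ± 0.33, edgeR adjusted p = 2.35e-05), and 0.943, 2.25 and 1.23 CPM against 8.59, 5.54 and 7.9 CPM in siSSB (2.32 ± 0.37, adjusted p = 1.62e-05). The gene of the same sequence at chr1:145161108-145161178 (TRNAV-CAC) had 2.57, 2.33 and 4.99 CPM in control cyto and 10.1, 10.4 and 14.4 CPM in control nuc (1.82 ± 0.33, adjusted p = 5.48e-05) and a difference of 2.28 ± 0.34 in siSSB (adjusted p = 5.53e-06). They were higher in the nucleus with TMM scaling, and with scaling by library size alone TRV-CAC8-1 turned to -2.2 and TRNAV-CAC to -2.29 in control, above the median of -4.34 of all features on that scale. TRV-AAC6-1, named after its values were seen, was also higher in the nucleus, by 1.64 ± 0.35 in control and 2.01 ± 0.33 in siSSB, and had in whole cells the third lowest change of all members, -2.0, with 2255, 859 and 658 reads in control total and 269, 180 and 582 in siSSB total.

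Isoleucine genes were spread along the same axis. TRI-AAT8-1 had the lowest difference in control among members with at least 50 reads on average, at 8.89, 6.57 and 9.92 CPM in the cytoplasm and 0.774, 0.225 and 0.286 CPM in the nucleus (-4.27 ± 0.41, edgeR adjusted p = 4.37e-10), and stood at -3.29 ± 0.38 in siSSB (adjusted p = 1.21e-07). TRI-AAT6-1 lay at -2.53 ± 0.36 in control (adjusted p = 1.1e-06) and -2.05 ± 0.37 in siSSB (adjusted p = 0.0001). TRI-AAT2-1, the most abundant of the family, did not pass, at 8.16, 5.62 and 19.7 CPM in control cyto and 10.6, 4.63 and 9.18 CPM in control nuc (-0.45 ± 0.37, adjusted p = 0.425). In siSSB 7 of 13 Ile-AAT genes passed, 5 lower and 2 higher in the nucleus, beside 10 of 14, all lower, in control. Over all features 25.3% passed in siSSB and 23.3% in control. The Ile-AAT total passed in control (-1.48 ± 0.33, adjusted p = 0.00072) and did not in siSSB (-0.6 ± 0.31, adjusted p = 0.166), and the difference of effects for this family, given above, did not pass either.

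In control cells Phe and initiator Met lay nearest to even between the fractions with TMM scaling. With library size alone all 85 tested members were called lower in the control nucleus, so the evenness rests on the scaling. Phe totals were 11.3, 10.2 and 12 CPM in control cyto and 10.2, 8.75 and 10.6 CPM in control nuc (-0.18 ± 0.28, edgeR adjusted p = 0.706), and initiator Met totals were 17.5, 8.85 and 13.5 CPM against 8.85, 8.01 and 6.07 CPM (-0.79 ± 0.31, adjusted p = 0.0622). The other 7 totals were lower in the control nucleus. The log2 difference was -1.83 ± 0.31 for elongator Met (adjusted p = 2.12e-05), -1.43 ± 0.33 for Trp (adjusted p = 0.0011) and -3.45 ± 0.64 for Ile-GAT (adjusted p = 7.52e-05). It was -2.34 ± 0.3 for Val-CAC, -2.31 ± 0.3 for Val-AAC and -2.07 ± 0.3 for Val-TAC, with adjusted p of at most 1.65e-06. With TMM factors from features of at most 500 nt the Trp total was at -0.84 and did not pass (adjusted p = 0.0606). In siSSB 5 totals were lower, those of elongator Met, Ile-GAT and the 3 Val families, while Phe stood at 0.36 ± 0.3 (adjusted p = 0.413). The elongator Met call in siSSB was lost with TMM factors from features of at most 500 nt (-0.54, adjusted p = 0.207) and without siSSB nuc replicate 2 (0.0553). By gene, 4 of 11 Phe genes passed in control, 2 in each direction, beside 23.3% of all features. In siSSB 6 passed, of which 5 were higher in the nucleus, beside 25.3% of all features called and 10.9% called higher. Of the 11 genes, 6 are copies of 1 sequence, so these counts are not of independent values. Of the leading genes, TRX-CAT1-1 (-1.5 ± 0.34, adjusted p = 0.000849), TRM-CAT1-1 (-2.64 ± 0.36, adjusted p = 4.58e-07) and TRF-GAA1-5 (-0.94 ± 0.3, adjusted p = 0.0204) were lower in the control nucleus. The TRF-GAA1-5 call was lost with TMM factors from features of at most 500 nt, where its difference was -0.36 (adjusted p = 0.425), and without control cyto replicate 1 (0.0554), control nuc replicate 2 (0.108) or control nuc replicate 3 (0.0655).

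A measure that does not depend on the scaling between libraries sets each family against all other tRNA reads of the same library. In control cells, Phe was 0.16%, 0.17% and 0.151% of the other tRNA reads in the cytoplasm and 0.515%, 0.516% and 0.674% in the nucleus, a log2 difference of 1.82 ± 0.3 (edgeR adjusted p = 1e-05). Initiator Met was 0.247%, 0.148% and 0.171% in the cytoplasm and 0.447%, 0.473% and 0.387% in the nucleus (1.21 ± 0.3, adjusted p = 0.00256). These 2 families passed in control, and both groups of values were apart in every library. Elongator Met was 0.245%, 0.198% and 0.14% against 0.215%, 0.239% and 0.189%, with a difference of 0.14 ± 0.3 (adjusted p = 0.785).

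In siSSB cells Phe went from 0.143%, 0.152% and 0.148% in the cytoplasm to 0.658%, 0.923% and 0.628% in the nucleus (2.32 ± 0.32, edgeR adjusted p = 1.89e-06) and initiator Met from 0.15%, 0.178% and 0.429% to 0.53%, 0.719% and 0.481% (1.19 ± 0.37, adjusted p = 0.0164). Ile-AAT (1.32 ± 0.3, adjusted p = 0.00141) and Trp (1.35 ± 0.34, adjusted p = 0.00376) also held a larger share of nuclear than of cytoplasmic tRNA reads, and Val-CAC a smaller one (-0.85 ± 0.3, adjusted p = 0.037). The Val-CAC call was lost without any one of the siSSB fraction libraries other than siSSB cyto replicate 2, with adjusted p from 0.05 to 0.371 and a difference of -0.49 without siSSB cyto replicate 3, and with the looser filter (0.0619). The initiator Met call was lost without siSSB cyto replicate 1 (0.93, adjusted p = 0.147), siSSB cyto replicate 2 (0.0507), siSSB nuc replicate 1 (0.0528) or siSSB nuc replicate 2 (0.0929). The count of 5 was 3 without siSSB cyto replicate 1, siSSB nuc replicate 1 or siSSB nuc replicate 2. Against other tRNAs no family passed on knockdown in edgeR: the smallest adjusted p was 0.185 in whole cells, 0.237 in nuclei and 0.792 in cytoplasm, with 1, 2 and 0 families at an unadjusted p under 0.05. The lowest in total RNA was Ile-AAT, at 0.786%, 0.773% and 0.623% in control and 0.4%, 0.324% and 0.536% of the other tRNA reads in siSSB (-0.79 ± 0.29, adjusted p = 0.185).

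Initiator and elongator Met were compared directly as the ratio of their reads in a library. In control cells the ratio was 2.08, 1.98 and 2.05 in the nucleus and 1.01, 0.746 and 1.22 in the cytoplasm. Every nuclear library stood above every cytoplasmic one, and the log2 difference was 1.03 ± 0.3 (edgeR with the elongator reads as offset, adjusted p = 0.00912 over the 6 comparisons of the ratio). Whole control cells had 0.945, 1.25 and 1.23, near the cytoplasmic values. In siSSB cells the nuclear ratios of 1.46, 2.18 and 1.18 overlapped the cytoplasmic ratios of 0.662, 0.949 and 1.39, and the difference of 0.68 ± 0.34 did not pass (adjusted p = 0.164).

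Knockdown did not change the ratio past the threshold in any fraction. The log2 difference was -0.28 ± 0.24 in total RNA (edgeR adjusted p = 0.416), -0.35 ± 0.29 in the nucleus (adjusted p = 0.416) and 0.01 ± 0.32 in the cytoplasm (adjusted p = 0.978), and the 2 fraction effects differed by -0.35 ± 0.45 (adjusted p = 0.527). The nuclear ratios rest on few reads: control nuc replicate 1 had 320 initiator and 154 elongator reads. Without control cyto replicate 2 the fraction difference in control was 0.87 and did not pass (adjusted p = 0.136). Without siSSB cyto replicate 3 the difference in siSSB was 0.99 and passed (adjusted p = 0.0185).

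**Figure D4:**
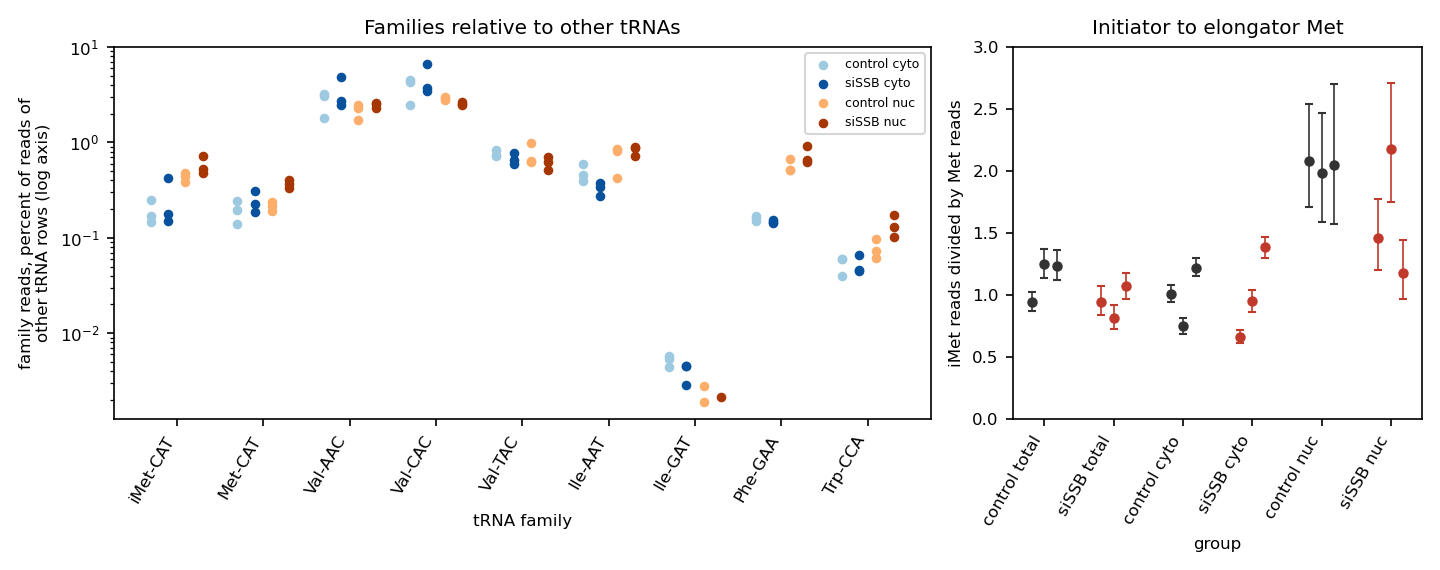
Left, reads of each family as percent of the other tRNA reads in the 4 fraction groups (points are libraries, log axis); right, the ratio of initiator to elongator Met reads in each library, with 95% exact bounds that cover counting error only. The 3 control nuclear ratios lie at 1.98 to 2.08, above all 3 control cytoplasmic ratios.

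Identical gene copies have the same mature sequence, so their counts can part only through reads that reach into the flanks or through the way shared reads were assigned. The 13 shared sequences differed in this. The 8 copies of the commonest Val-CAC sequence had nearly even shares, from 10.9% to 14.9% of their joint reads in control total beside an even share of 12.5%. In contrast, of the 6 copies of the commonest Phe sequence TRF-GAA1-5 alone held 58.7% ± 3.55 (SD, n = 3) in control total and TRF-GAA1-2 held 1.97% ± 0.348. Of 5 Val-AAC copies TRV-AAC1-4 held 45.3% ± 2.46, and of 5 Ile-AAT copies TRI-AAT5-1 held 40.5% ± 2.26. The 25 nt downstream of these copies are shown because they are where the copies differ, with the first run of at least 4 thymidines in capitals where one lies in this window.
TRV-AAC1-1: cactaaaaaatcccTTTTTTTTTTT
TRV-AAC1-2: gaatcttatgcTTTTcatctcatta
TRV-AAC1-3: gactcttatgcTTTTcatctcatta
TRV-AAC1-4: agactgtgTTTTccttccagttcaa
TRV-AAC1-5: aagagagtcgcTTTTTTTTctatcg
TRI-AAT5-1: actttgTTTTcttccatcacgtaac
TRI-AAT5-2: cttccgtgggtttgTTTTTTTTTTT
TRI-AAT5-3: cgagggttctcaccttctctctccg
TRI-AAT5-4: ggctaacTTTTTTTTTTTTTTTTTg
TRI-AAT5-5: ggattgaaacTTTTcgaaagtacga
TRF-GAA1-1: gggTTTTTTTTTTTTctttctttct
TRF-GAA1-2: tgagagcgctcggTTTTTTgtgccc
TRF-GAA1-3: gaccTTTTgttggctcaaccccttt
TRF-GAA1-4: cttcctcTTTTTccttccccccggg
TRF-GAA1-5: gctacTTTTaaattctgacctcaaa
TRF-GAA1-6: gaagTTTTagcgcctcttgcgatca

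The first thymidine run of TRV-AAC1-4 has 8 nt between it and the mature end, before that of the other 4 copies at 11 to 14 nt. TRI-AAT5-2 has its run at 14 nt and TRI-AAT5-3 no run of 4 in the window. TRF-GAA1-4 has its run at 7 nt and TRF-GAA1-5 at 5 nt. A motif of this kind is a description of the letters and says nothing about where transcription ended.

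Some copies of 1 sequence also differed between the fractions. The split was compared after the data had been seen, with the reads of the other copies of the sequence in the library as offset, so it does not depend on the scaling. A larger share of 1 copy means a smaller share of its sisters, so the tests of copies of 1 sequence are not independent. With only 2 copies the tests mirror each other: TRV-TAC1-1 (1.27) and TRV-TAC1-2 (-1.1) both count among those called in control. In control 11 of 46 copies with a mean of at least 10 reads passed, 5 with a larger and 6 with a smaller nuclear share. In siSSB 12 of 45 passed, 5 larger and 7 smaller (edgeR, adjusted over all features tested). The shares passing were near those of all features called in these comparisons, 23.3% in control and 25.3% in siSSB. The counts alone therefore do not set the copies apart. TRV-AAC1-4 held 24%, 23.5% and 39.6% of the reads of its 5 copies in control cyto and 51.4%, 51.0% and 64.3% in control nuc (log2 difference 1.6 ± 0.33, adjusted p = 0.000349), while its sisters TRV-AAC1-1 (-1.01 ± 0.31, adjusted p = 0.0145) and TRV-AAC1-2 (-1.18 ± 0.32, adjusted p = 0.0055) had smaller nuclear shares. TRI-AAT5-2 held 5.17%, 7.98% and 6.6% against 15.8%, 20% and 30.2% (2.0 ± 0.41, adjusted p = 0.000301). TRF-GAA1-4 held 14.9%, 13.3% and 16.9% against 29.5%, 37.8% and 35.2% (1.56 ± 0.32, adjusted p = 0.00036), and TRF-GAA1-5 68.3%, 67.6% and 63.3% against 54.6%, 44.9% and 46.5% (-1.04 ± 0.31, adjusted p = 0.0107). In each of these 4 copies no nuclear library overlapped a cytoplasmic one, but the copies were picked after their values were seen. Such a gap was common: in CPM, 7372 of all 26774 features were lower and 3817 higher in the control nucleus without overlap.

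The same 4 copies passed in siSSB cells, in the same direction. TRV-AAC1-4 differed by 2.04 ± 0.32 (edgeR adjusted p = 1.18e-05), TRI-AAT5-2 by 2.33 ± 0.36 (adjusted p = 9.83e-06), TRF-GAA1-4 by 1.29 ± 0.33 (adjusted p = 0.0042) and TRF-GAA1-5 by -1.04 ± 0.32 (adjusted p = 0.0168). Among initiator genes, TRX-CAT1-5 held a smaller nuclear share in both (-1.21 ± 0.42, adjusted p = 0.0357 in control and -1.75 ± 0.44, adjusted p = 0.00355 in siSSB). TRX-CAT1-1 (-1.03 ± 0.33, adjusted p = 0.0226) and TRX-CAT1-7 (0.93 ± 0.32, adjusted p = 0.0335) passed in control, the first with a smaller and the second with a larger nuclear share. None of the 8 copies of the commonest Val-CAC sequence passed. The control count of 11 was 6 without control cyto replicate 2 or control nuc replicate 3, and 7 without control cyto replicate 1 or control nuc replicate 2. The siSSB count was 9 to 12 over the libraries left out.

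Knockdown moved no copy against its sisters past the threshold. In edgeR 0 of 45 copies passed in total RNA (smallest adjusted p = 0.524), 0 of 34 in the nucleus (0.174) and 0 of 49 in the cytoplasm (0.793), with 0, 7 and 0 at an unadjusted p under 0.05. Without control nuc replicate 3, 1 copy passed in the nucleus. The difference between the fraction effects gave 0 of 46, with 3 unadjusted. In whole cells TRV-AAC1-4 held 45.3% ± 2.46 in control and 43.7% ± 11 (SD, n = 3) in siSSB, and TRF-GAA1-5 held 58.7% ± 3.55 and 59.2% ± 1.99.

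**Figure D5:**
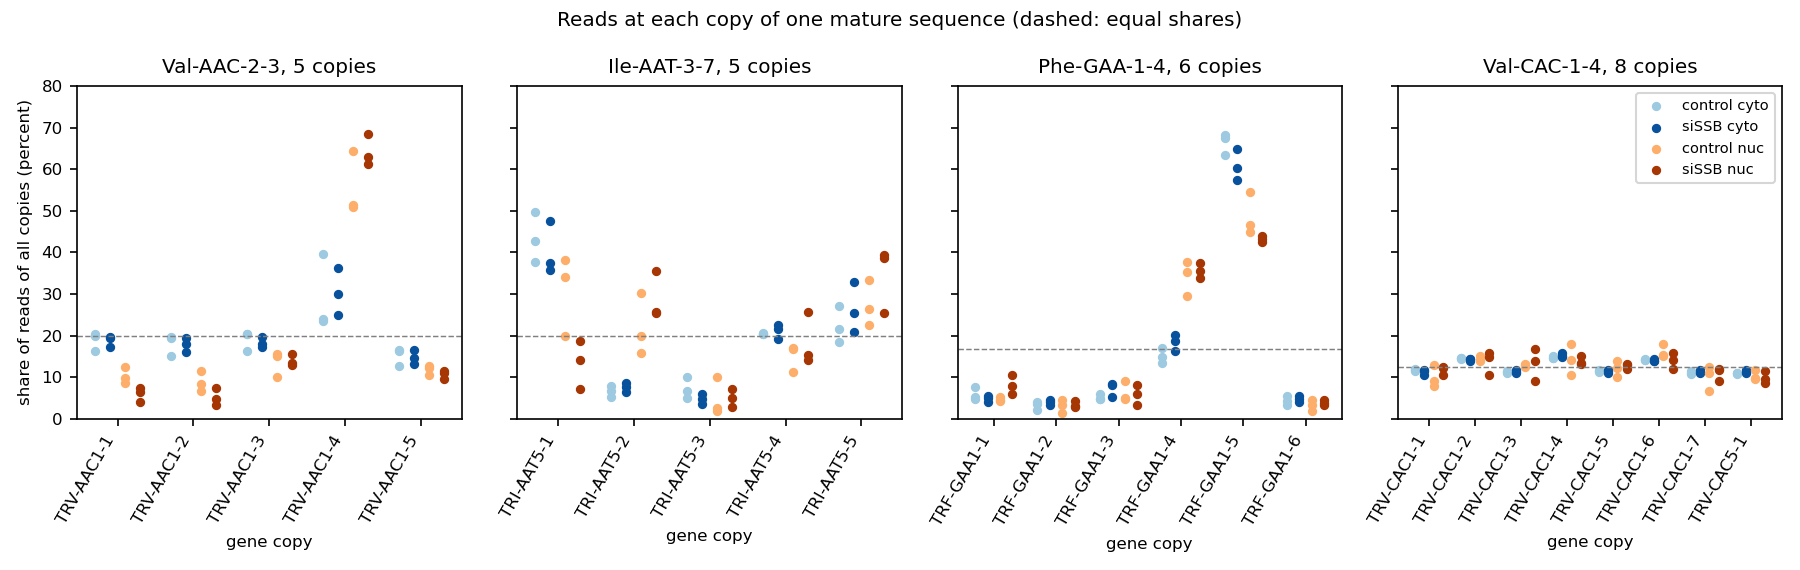
Percent of the reads of 1 mature sequence that fell on each of its gene copies, in each library by group (points), for 5 Val-AAC, 5 Ile-AAT, 6 Phe and 8 Val-CAC copies; the dashed line is an even share. TRV-AAC1-4 has a mean of 29.0% in control cyto and 55.6% in control nuc, while the Val-CAC copies lie near 12.5%.

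RNAs chosen for comparison gave a frame for these values. The mitochondrial tRNAs of the same 5 amino acids, which another polymerase makes without a thymidine terminator, had median log2 changes on knockdown of -0.17 in total RNA, of -0.08 in nuclei and of 0.16 in cytoplasm, and none of the 5 was called. In total RNA they ranged from -1.02 ± 0.44 for MT-TV (edgeR adjusted p = 0.266) to 0.21 for MT-TW. The MT-TV change was thus about as large as the median of the members, -0.95. RPPH1, the RNA of RNase P and itself made by RNA polymerase III, stood at -0.08 ± 0.24, 0.07 ± 0.45 and 0.05 ± 0.29. VTRNA1-1, a vault RNA made by RNA polymerase III, was lower in all 3: its log2 change was -2.25 ± 0.34 in total RNA (edgeR adjusted p = 0.0128), -1.8 ± 0.27 in the nucleus (adjusted p = 0.00473) and -1.83 ± 0.28 in the cytoplasm (adjusted p = 0.0342). It had 2661, 1873 and 1797 reads in control total and 494, 377 and 577 in siSSB total. Among the 9 cytoplasmic markers no other was called on knockdown in these 3 comparisons. Other RNA polymerase III transcripts among the markers were not called either. In total RNA their log2 changes were -0.34 for RNY1, -0.9 for RNY3, -0.29 for RNY4 and -0.6 for RNU6-1. RN7SL1 and RN7SL2 stood at -0.34 and -0.32. Other tRNA rows are given beside each comparison above.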

How the data were processed

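HEK293T small RNA libraries of 3 fractions, with and without SSB knockdown, were measured as raw read counts per feature, deposited by the authors in 1 table of 18 libraries without normalization. The submitters' processing notes name the build hg38 and the tools Bowtie2 and bedtools, without their roles. The versions used for these small RNA libraries, their strand and the treatment of reads with several positions are not given in the sources used here. Rows of at most 500 nt named for the 6 tRNA types were taken, and genes were named from RefSeq (GRCh38.p14). Mature Ile-AAT sequences are not reported here. The members and lists were chosen with earlier results of these data known.

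Counts were fitted with edgeR 4.0.16 in R 4.3.3 (quasi-likelihood F-test, TMM factors, filterByExpr), separately for each comparison of 6 libraries and for the 12 fraction libraries together, with no covariate, and the Benjamini-Hochberg adjustment covered all features tested, with calls at 0.05. Family sums, families relative to other tRNAs and copies were added rows of the same fit. Their p-values were adjusted together with all features, in place of over the families as first planned, and those of the initiator to elongator ratio over its 6 comparisons. Fold changes are log2 with their SE. CPM are TMM-scaled. Ratios carry exact 95% bounds for counting error only.

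Named genes were the highest member of each family, every member called on knockdown, and the 2 highest and 2 lowest fraction differences among members with a mean of at least 50 counts. Comparison RNAs, copies and TRM-CAT6-1 were named besides these, the copies after their values were seen. DESeq2 1.42.0, the edgeR exact test, other scalings, a looser filter of 10 counts, identical rows taken once, a replicate block and each library left out were the alternatives. On simulated counts the whole-cell fit recovered 22% of genes changed by 1 and 98% of those changed by 2 on the log2 scale over 12558 features. For the nucleus these were 25% and 95% over 6542 features, and for the cytoplasm 6% and 83% over 18131 features. The changed features were drawn from those with an expected mean of more than 50 counts. The rates therefore do not cover members with fewer reads, of which the nuclear libraries have many. The p-values measure the spread between these libraries.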

Additional observations from a re-analysis of the deposited data

How the results depend on the processing

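The count of members called on knockdown in total RNA, 2 with the fit as reported, was 4 with library size alone, 1 with RLE factors, 10 with TMM on features of at most 500 nt, 4 with the total of such features, 10 without the filter beyond 10 counts and 0 with identical counts taken once. It was 20 by the edgeR exact test, 19 by DESeq2, and 0 to 20 over the libraries left out. In the cytoplasm the count of 1 was 2 without the filter, 8 by the exact test, 5 by DESeq2 and 0 to 1 over the libraries left out. Family totals called in total RNA were 1 with TMM on features of at most 500 nt, in place of 0, and 0 to 2 over the libraries left out. In the siSSB fraction comparison they were 9, in place of 5, with library size alone and with the total of features of at most 500 nt, and families called relative to other tRNAs were 3 to 4 over the libraries left out.

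Replicate numbers did not pair the libraries: the correlation of same-numbered deviations ran from -0.57 to 0.3 over the 15 pairs of the comparisons of 2 groups, and 4 of 15 correlated best with their own number. With the replicate block, 7 members were called in total RNA and 0 in the cytoplasm, the initiator to elongator log2 difference in the cytoplasm was -0.03, and TRI-AAT8-1 in the nucleus was 0.07. The block took away the cytoplasmic call of tRNA-Val-CAC-10-1 (-2.21, adjusted p = 0.135) and that of Val-CAC relative to other tRNAs in siSSB (-0.79, 0.0845), and in total RNA TRV-TAC3-1 (0.0499) and tRNA-Val-CAC-10-1 (0.0372) passed with it.

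Taken from the highest member of each family alone, the initiator to elongator log2 difference was 0.17 on knockdown in total RNA, 0.49 in the nucleus and 0.4 for the difference of effects, all of opposite sign to the family ratio, and 1.65 in the siSSB fractions (edgeR adjusted p = 0.00057). Over the libraries left out the log2 difference of the family ratio was -0.3 to 0.23 in the cytoplasm, 0.87 to 1.21 in the control fractions and 0.4 to 0.99 in the siSSB fractions.

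Other values changed sign. TRV-AAC2-1 in total RNA was 0.15 with library size alone and with the total of features of at most 500 nt. TRI-AAT8-1 in the nucleus was 0.32 with library size alone, 0.17 with TMM on features of at most 500 nt, 0.27 with the total of those, and -0.36 to 0.66 over the libraries left out. TRI-AAT2-1 in the control fractions was 0.14 with TMM on features of at most 500 nt and -0.87 to 0.18 over the libraries left out. With library size alone and with the total of features of at most 500 nt, TRNAV-CAC was -2.29 and -1.09 in the control fractions and -1.54 and -0.45 in siSSB, and TRV-CAC8-1 was -2.2 and -1.0 and, in siSSB, -1.53 and -0.44. The cause of these changes was not tested. Counts of members called in the nucleus, and of family totals in the nucleus and cytoplasm, stayed at 0 over the libraries left out. Depth limits the nuclear values most, with 3393 to 5208 member reads a library.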
